A study of Mus musculus with 12 samples.

Results

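The enzymes and transporters that modify, conjugate, reduce and export reactive compounds were followed in the mouse hepatocyte line AML12. Its cells had been transfected to raise or lower DUSP6, which dephosphorylates the kinase ERK. Members were all genes in either deposited table whose symbol belongs to the Cyp, Fmo, Ces, Ephx, Aldh, Akr, Ugt, Gst, Mgst, Sult, Gcl, Gsr, Gpx, Txn, Prdx, Nqo or ABC transporter (Abca to Abcg) families. This gave 44 genes of the 2600 listed in either table, 42 in the siRNA table and 7 in the plasmid table, with 5 in both. The tables list only genes with a p-value of the authors under about 0.05, so every member stands here because it differed. GENCODE M21 holds 333 protein-coding genes with such symbols, and those that are not listed were not analysed here.

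RNA sequencing was done on 12 libraries in 4 groups of 3. Cells were transfected by lipofection with a plasmid for GFP alone or for GFP-DUSP6 and collected after 24 h, or with a negative-control siRNA (NC, whose cells carry the label WT) or an siRNA against Dusp6 (siDUSP6) and collected after 48 h. All cells grew in medium with 10% serum, 1% ITS supplement and dexamethasone at 40 ng/ml, a glucocorticoid. The labels do not tell whether replicates were separate cultures, so the spread that the p-values rest on is that of the libraries and may be technical.

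Hepatocytes clear foreign and endogenous compounds in steps. Cytochromes P450, epoxide hydrolases and aldehyde or keto reductases and dehydrogenases change functional groups, transferases attach glutathione, glucuronic acid or sulfate, and ABC transporters use ATP to move compounds or lipids across membranes. Glutathione, made from glutamate, cysteine and glycine, and the thioredoxin and peroxiredoxin proteins keep thiols reduced and remove peroxides. Many of these genes are known targets of the transcription factor NRF2 or of nuclear receptors.

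The targeted transcript was checked first. With siDUSP6 the mean of Dusp6 was 1783 ± 46.1 normalized counts and with NC 3935 ± 129 (SD, n = 3 each), and Dusp6 was also lower in the libraries labelled GFP-DUSP6, at 2354 ± 126 against 3352 ± 57.2 with GFP. The sources used here do not tell whether reads of the plasmid's own transcript were counted as Dusp6. The Dusp6 count therefore does not tell whether DUSP6 was raised, and changes there are given for the libraries as labelled. Normalized counts are the deposited counts divided by size factors of the whole libraries, which lay between 0.94 and 1.05. Counts over the listed genes summed to between 1303866 and 1531091 per plasmid library and between 3500977 and 4078892 per siRNA library, and these sums are not library depths. Of 12 hepatocyte markers, 7 were called in the siRNA contrast, where 15.0% of all tested genes were called, with Alb, Ttr, Apoa1, Trf and Hnf4a lower and the keratins Krt8 and Krt18 higher. Alb, which encodes albumin, had a mean of 170.8 ± 38.2 normalized counts with siDUSP6 and of 673.8 ± 94.0 with NC (SD, n = 3 each). An edgeR refit passed both keratins, but neither with scaling over the listed genes or without siDUSP6 replicate 2, siDUSP6 replicate 3, NC replicate 1 or NC replicate 2. It passed the 5 lower markers, but 3 without any 1 of the siDUSP6 replicates or without NC replicate 3. The markers called in the siRNA table summed to between 83802 and 93112 normalized counts per siDUSP6 library and between 66081 and 82406 per NC library. Krt8 and Krt18 make up most of this sum, with means of 48644 and 36981 normalized counts in siDUSP6 and 38224 and 31371 in NC. No hepatocyte marker was listed in the plasmid table. Biliary markers had 2 calls of 6 in the siRNA contrast (Sox9 higher, Spp1 lower). In the plasmid contrast, where 4.61% of tested genes were called, 3 of 6 were called (Spp1 higher, Krt19 and Sox9 lower). The plasmid call of Spp1 was lost with either scaling over the listed genes. Summed normalized counts of the listed biliary markers lay between 2252 and 2388 in siDUSP6 against 2067 to 2323 in NC. In the plasmid contrast they lay between 31284 and 31714 in the libraries labelled GFP-DUSP6 against 38697 to 41222 with GFP. Krt19 makes up most of the plasmid sum, with means of 28797 and 37744. It is not listed in the siRNA table, so the sums cover different genes. Of the 6 stellate, 5 endothelial and 5 macrophage markers 0 were listed in the siRNA table, so their levels there are not known. The plasmid table listed none of the stellate and macrophage markers and 1 endothelial marker, Stab1, at 271 to 282 normalized counts in the libraries labelled GFP-DUSP6 and 112 to 141 with GFP. The part of these markers in the results was not tested. In bulk RNA, fewer cells of a type and less RNA per cell cannot be told apart.

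With siDUSP6 most listed detoxification genes were lower. Of the 42 listed, 40 were called (adjusted p under 0.05 in the authors' deposited table, DESeq2), 31 lower and 9 higher, with a median log2 fold change of -0.51. Over all 1959 called genes the median was 0.23, with 48.1% lower. In this contrast 15.0% of the 13102 tested genes were called, 7.19% lower and 7.76% higher. How many members were tested is not known, so no share of members can be set beside these percentages. All 7 called aldehyde dehydrogenases and aldo-keto reductases and all 9 called conjugating enzymes were lower, while P450s and ABC transporters went both ways. A fall of at least 2-fold was seen in 9 called members and a rise of that size in 0, where 0.633% of tested genes were called with such a fall and 2.12% with such a change in either direction. The siDUSP6 and NC libraries did not overlap in 38 of the 40 called members, and not in 98.8% of all called genes. In an edgeR quasi-likelihood refit, which held the same counts and only the listed genes, 29 members were lower and 5 higher. Leaving out siDUSP6 replicate 2 left 18 lower and 1 higher, and leaving out either siDUSP6 replicate 3 or NC replicate 2 left 20 and 1. No called member changed sign in these fits, and over all genes the refit passed 1605 with all libraries and 694, 807 and 953 in these fits. Scaling over the listed genes gave 31 lower and 3 higher by TMM, and 31 and 2 by median of ratios. Over all genes that passed, 53.0% were higher in the refit, 40.4% with TMM and 33.9% with median of ratios. Only 1 siRNA was set against 1 control siRNA, so a response to the siRNA molecules themselves and the loss of Dusp6 cannot be told apart.

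**Figure D1:**
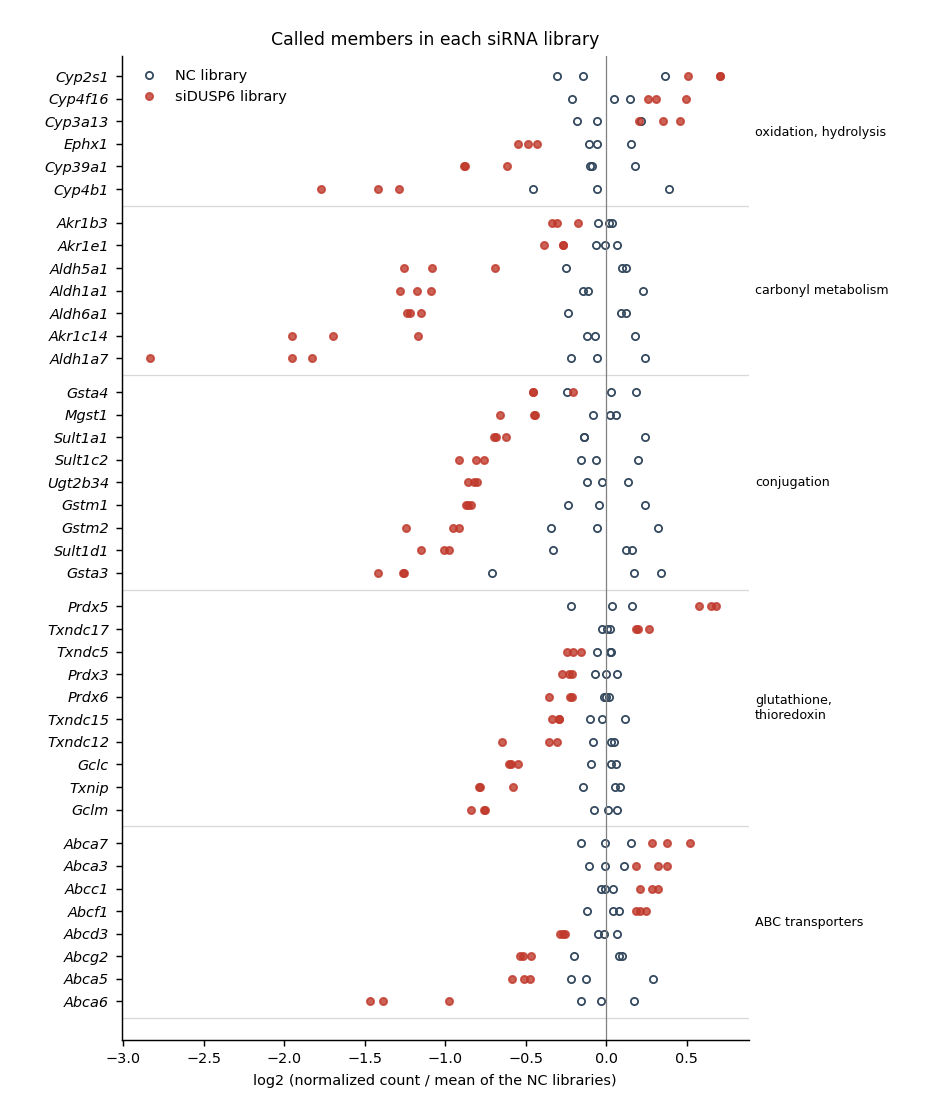
Normalized count of each called member in each siRNA library, as log2 of the ratio to the mean of the 3 NC libraries, grouped by role. Filled points are the 3 siDUSP6 libraries and open points the 3 NC libraries. The siDUSP6 points of all conjugating and carbonyl enzymes lie to the left of the NC mean, and those of 9 members, among them Prdx5 and Cyp2s1, to the right.

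The 4 called aldehyde dehydrogenases, which oxidize aldehydes to acids, were lower, and Aldh1a7 had the largest fall of all called members. Aldh1a1, which oxidizes retinaldehyde to retinoic acid (ENSMUSG00000053279, mm10 chromosome 19, 20492715 to 20643465, plus strand), had 1236, 1412 and 1326 normalized counts in siDUSP6 replicates 1 to 3 and 2707, 2772 and 3515 in NC. Every siDUSP6 value was under every NC value, and NC replicate 3 was the highest. Its log2 fold change was -1.18 ± 0.10 (SE, edgeR), a level 2.26-fold lower, with an adjusted p of 2.3e-24 in the authors' deposited table (DESeq2). The edgeR refit gave a larger adjusted p, 2.6e-05. Aldh1a7, a close relative of Aldh1a1, had 34.4, 63.5 and 69.1 in siDUSP6 and 211, 236 and 289 in NC. It was lower by a larger factor than Aldh1a1, with a log2 fold change of -2.14 ± 0.23 (4.40-fold lower, adjusted p = 7.89e-16 in the authors' deposited table). For Aldh1a7 the adjusted p of the edgeR refit was 0.000152. The difference in size between these genes was not tested. Aldh6a1, a mitochondrial enzyme of valine breakdown, had 410.4, 416 and 436 in siDUSP6 and 1028, 818 and 1052 in NC, with a log2 fold change of -1.20 ± 0.11 (adjusted p = 1.02e-20 in the authors' deposited table). The opposite-strand gene Bbof1 overlaps 18.6% of its exon bases, and the sources used here do not tell whether reads were counted by strand. Aldh5a1, which oxidizes succinate semialdehyde from GABA, was at a low level and fell from 77.5 ± 10.7 to 39.0 ± 8.10 normalized counts (SD, n = 3), with an adjusted p of 0.00941 in the authors' deposited table; genes on the opposite strand overlap 17.7% of its exon bases.

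Aldh1a1 and Aldh1a7 lie on mouse chromosome 19 with 49.5 kb between them and on opposite strands. Sequence before their start sites is shown because both neighbours fell. The 250 bases before a RefSeq start of each gene (GRCm38.p6, plus strand chr19:20601718-20601967 for Aldh1a1 and minus strand chr19:20727557-20727806 for Aldh1a7, 5′ to 3′) read as follows, with the longest identical run in capitals.
Aldh1a1: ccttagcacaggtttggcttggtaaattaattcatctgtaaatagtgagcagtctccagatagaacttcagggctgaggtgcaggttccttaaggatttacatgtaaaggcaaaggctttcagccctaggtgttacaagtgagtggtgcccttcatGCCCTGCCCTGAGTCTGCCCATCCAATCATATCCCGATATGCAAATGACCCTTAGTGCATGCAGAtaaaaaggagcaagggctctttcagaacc
Aldh1a7: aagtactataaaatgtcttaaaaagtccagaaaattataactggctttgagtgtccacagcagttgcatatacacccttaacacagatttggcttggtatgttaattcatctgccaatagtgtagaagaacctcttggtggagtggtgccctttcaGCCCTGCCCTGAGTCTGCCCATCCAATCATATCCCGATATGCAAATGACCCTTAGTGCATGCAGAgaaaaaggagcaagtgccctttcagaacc
The identical run is 65 bases long and begins 94 bases before the start in both genes. In a gapped alignment 173 of the 250 bases were identical (69.2%), for the pair of starts with the most identical bases. The same alignment gave 48.8% for Gstm1 and Gstm2. It gave 52.0% for Sult1d1 and Sult1c2, which lie on different chromosomes. Their transcripts also share 151 words of 50 bases, which are 3.06% of the words of Aldh1a1 and 7.49% of those of Aldh1a7, so a small part of the reads cannot be assigned to 1 gene. RefSeq has a second start of Aldh1a1, farther upstream.

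Of the aldo-keto reductases, which reduce aldehydes and ketones to alcohols, 3 were called lower. Akr1c14, a hydroxysteroid dehydrogenase, had 16.7, 24.1 and 14.0 normalized counts in siDUSP6 and 61.2, 51.5 and 49.9 in NC, with a log2 fold change of -1.56 ± 0.28 (adjusted p = 0.000705 in the authors' deposited table). Its counts are few, which limits the precision. Akr1b3, the mouse aldose reductase, changed much less, with 2727, 2492 and 2436 in siDUSP6 and 2972, 3118 and 3154 in NC and a log2 fold change of -0.27 ± 0.07 (adjusted p = 0.00472 in the authors' deposited table). Of its 50-base words 13.6% also occur in other genes, among them Gm38056, Gm6644 and Gm6736. Akr1e1 had a log2 fold change of -0.31 ± 0.09.

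All called conjugating enzymes were lower with siDUSP6. Glutathione S-transferases join glutathione to electrophiles. Gstm1, of the mu class, had 1014, 992 and 1000.0 normalized counts in siDUSP6 and 1537, 1760.3 and 2145 in NC. The siDUSP6 values lay close together and the NC values were spread, with replicate 3 highest. The log2 fold change was -0.86 ± 0.11 (SE, edgeR; adjusted p = 2.42e-11 in the authors' deposited table). Its neighbour Gstm2, 25.8 kb away on chromosome 3, had 294, 359.8 and 369 in siDUSP6 and 549, 669 and 869 in NC, a log2 fold change of -1.03 ± 0.16. Of the 50-base words of Gstm1 18.9% occur in other genes, Gstm2-ps1 and Gstm3 among them, and 5.65% of those of Gstm2, so counts within this family are uncertain. Gsta3, an alpha-class enzyme, had a log2 fold change of -1.31 ± 0.29 from few counts (33.5, 33.7 and 30.1 in siDUSP6 and 49.1, 90.4 and 102 in NC). Gsta4, which is known for conjugating the lipid peroxidation product hydroxynonenal, was called with an adjusted p of 0.0359 in the authors' deposited table, but its groups overlapped and the edgeR refit did not pass it (adjusted p = 0.071). Mgst1, a membrane-bound transferase of the endoplasmic reticulum and mitochondria, had 1092, 1086 and 939 in siDUSP6 and 1543, 1398 and 1506 in NC, a log2 fold change of -0.51 ± 0.09.

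The 3 called sulfotransferases, which attach sulfate, and the called glucuronosyltransferase were lower. Sult1d1, a sulfotransferase of catecholamines in mice, had 615, 544 and 601 normalized counts in siDUSP6 and 1352, 962 and 1319 in NC, a log2 fold change of -1.04 ± 0.12 (adjusted p = 4.57e-13 in the authors' deposited table). Sult1c2 had 221, 214 and 199 in siDUSP6 and 337, 359 and 430.1 in NC, a log2 fold change of -0.83 ± 0.13 (adjusted p = 1.41e-06 in the authors' deposited table). Sult1a1, a phenol sulfotransferase, had a log2 fold change of -0.67 ± 0.15. Groups did not overlap in any of the 3. Ugt2b34, which attaches glucuronic acid, had 414, 397 and 408 in siDUSP6 and 792, 709.8 and 664 in NC, a log2 fold change of -0.83 ± 0.10 (adjusted p = 2.42e-11 in the authors' deposited table). Without single libraries the refit passed between 6 (without siDUSP6 replicate 2) and 9 of the conjugating enzymes and between 4 (without siDUSP6 replicate 2) and 6 of the carbonyl enzymes, against 8 and 7 with all libraries.

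Both subunits of glutamate-cysteine ligase, which catalyses the rate-limiting step of glutathione synthesis, fell with siDUSP6. Gclc, the catalytic subunit (ENSMUSG00000032350, mm10 chromosome 9, 77754535 to 77794485, plus strand), had 7025, 6749 and 6808 normalized counts in siDUSP6 and 10480.1, 9617 and 10720.4 in NC. Gclm, the modifier subunit (ENSMUSG00000028124, mm10 chromosome 3, 122245557 to 122270732, plus strand), had 1015, 1081 and 1076 in siDUSP6 and 1904, 1726 and 1829.9 in NC. The siDUSP6 libraries lay under the NC libraries with a wide gap in both genes. The log2 fold changes were -0.58 ± 0.06 for Gclc and -0.78 ± 0.07 for Gclm (SE, edgeR), with adjusted p of 2.08e-15 and 8.84e-19 in the authors' deposited table. In the edgeR refit the adjusted p was 0.000165 for Gclc and 4.93e-05 for Gclm. Per kb of exon, Gclc had the highest level of the called members in NC, at 2728 ± 154 normalized counts per kb, against 289.2 ± 14.2 for Gclm (SD, n = 3 each).

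NRF2 binds antioxidant response elements, and the core TGACNNNGC (N is any base) was searched on both strands from 250 bases before to 50 bases after each RefSeq start. It was present in 4 of the 34 promoters of members called lower with siDUSP6 (11.8%), which belong to 25 genes, and in 12.4% of all 32851 promoters of the same length. The genes were Gclm, Gsta3, Mgst1 and Txndc5. Of the 8 promoters of members called higher 0 held it. The core of the dioxin response element, GCGTG, on either strand was present in 14 of the 34 (41.2%) and in 5 of the 8 (62.5%), against 32.4% of all promoters. The motifs can overlap each other. In all, 35 of the 44 members matched a promoter by symbol. Abca6, Abcc1, Akr1b3, Cyp2d67-ps, Cyp39a1, Gclc, Gsr, Gsta4 and Prdx6 did not match and were not searched. The 250 bases before the start of Gclm (GRCm38.p6, plus strand, chr3:122245307-122245556) and of Gsta3 (plus strand, chr1:21240335-21240584) are shown because both hold the element, which is in capitals. The element begins 134 bases before the start of Gclm, on the opposite strand, and 121 bases before the start of Gsta3.
Gclm: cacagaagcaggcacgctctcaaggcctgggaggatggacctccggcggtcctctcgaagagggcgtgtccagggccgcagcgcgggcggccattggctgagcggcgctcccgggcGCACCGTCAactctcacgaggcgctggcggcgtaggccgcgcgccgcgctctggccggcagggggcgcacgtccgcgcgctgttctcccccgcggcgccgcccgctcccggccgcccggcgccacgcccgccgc
Gsta3: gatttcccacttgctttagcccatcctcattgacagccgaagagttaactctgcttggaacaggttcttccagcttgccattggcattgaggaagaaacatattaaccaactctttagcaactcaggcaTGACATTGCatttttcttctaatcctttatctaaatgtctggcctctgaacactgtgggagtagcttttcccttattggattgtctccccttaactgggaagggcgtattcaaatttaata
A match of letters is a description and not a bound site. Of the upstream bases 78.4% were G or C in Gclm and 42.0% in Gsta3.

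Peroxiredoxins, which reduce peroxides, moved in different directions. Prdx5, found in mitochondria, peroxisomes and cytosol, rose with siDUSP6, with 6818, 7193 and 7346 normalized counts against 3936, 4696 and 5117 in NC. The log2 fold change was 0.64 ± 0.09 (SE, edgeR; adjusted p = 2.32e-09 in the authors' deposited table), and the groups were apart. The opposite-strand gene Trmt112 overlaps 19.1% of the exon bases of Prdx5 and is not among the listed genes. Prdx6, which uses glutathione, was lower, with 5490.1, 5442 and 4975 in siDUSP6 and 6339, 6290.4 and 6441 in NC and a log2 fold change of -0.26 ± 0.06. Prdx3, the mitochondrial enzyme, had one of -0.24 ± 0.07. Txnip, which binds and inhibits thioredoxin, had 137, 137 and 158 in siDUSP6 and 245, 214 and 250.2 in NC, a log2 fold change of -0.72 ± 0.14 (adjusted p = 0.000453 in the authors' deposited table); Gm15441 on the other strand overlaps 19.4% of its exon bases. The thioredoxin-domain genes Txndc12, Txndc15 and Txndc5 were called lower, with log2 fold changes of -0.43 ± 0.11, -0.31 ± 0.09 and -0.20 ± 0.07, and Txndc17 higher, with 0.21 ± 0.07. The refit did not pass Txndc5 (adjusted p = 0.0718) and Txndc17 (adjusted p = 0.063). Prdx5 was the 1 redox gene that passed as higher in the edgeR refit, and it also passed there without any single library. Of the redox genes called lower the refit passed 7, and 3 without siDUSP6 replicate 2, siDUSP6 replicate 3 or NC replicate 2, and 4 without NC replicate 3.

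Cytochromes P450, which insert oxygen into lipids, steroids and drugs, were divided, with 2 called lower and 3 higher. Cyp39a1, a hydroxylase of oxysterols on the way to bile acids, had 1525, 1275 and 1269.6 normalized counts in siDUSP6 and 2646, 2182 and 2198 in NC, a log2 fold change of -0.79 ± 0.10 (adjusted p = 2.49e-11 in the authors' deposited table). Cyp4b1 had few counts, with 28.5, 36.6 and 40.1 in siDUSP6 and 71.2, 93.6 and 128 in NC, and a log2 fold change of -1.48 ± 0.26. Cyp2s1, known as inducible by dioxin, was higher, with 787, 903 and 904 in siDUSP6 and 448, 500.5 and 712 in NC. NC replicate 3 of Cyp2s1 lay near the lowest siDUSP6 library. Its log2 fold change was 0.64 ± 0.15 (adjusted p = 0.000677 in the authors' deposited table), and in the refit the call was lost without siDUSP6 replicate 2, siDUSP6 replicate 3 or NC replicate 2. Cyp4f16, of a family that hydroxylates fatty acids, and Cyp3a13, of the main drug-metabolizing family, were called higher with adjusted p of 0.041 and 0.044 in the authors' deposited table. The edgeR refit passed neither, at adjusted p of 0.0688 and 0.0773. Of the 50-base words of Cyp4f16 17.4% occur in other genes, mainly its relatives Cyp4f37 and Cyp4f17. Ephx1, the microsomal epoxide hydrolase, had 1612, 1678 and 1545 in siDUSP6 and 2098, 2175 and 2516 in NC, with a log2 fold change of -0.49 ± 0.08.

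ABC transporters were called lower in 4 cases and higher in 4 with siDUSP6. Abca6 had 27.6, 36.6 and 26.1 normalized counts in siDUSP6 and 70.2, 81.0 and 64.5 in NC, a log2 fold change of -1.25 ± 0.23 (adjusted p = 0.0011 in the authors' deposited table). Its neighbour Abca5, 17.6 kb away on chromosome 11, had 404, 374 and 394 in siDUSP6 and 688, 483 and 516 in NC, a log2 fold change of -0.53 ± 0.13, with NC replicate 1 far above the other NC libraries. Both belong to the A subfamily, whose members are known for moving lipids. Abcg2, an exporter of drugs and porphyrins, had 379, 398 and 385 in siDUSP6 and 582, 589.9 and 480.0 in NC, a log2 fold change of -0.51 ± 0.11 (adjusted p = 0.000864 in the authors' deposited table). Abcd3, which brings fatty acids into peroxisomes, had one of -0.27 ± 0.07. Among those called higher, Abca7, a phospholipid transporter, had 1261, 1487 and 1345 in siDUSP6 and 931, 1030.5 and 1152 in NC and changed by 0.39 ± 0.10. Abca3, which loads surfactant lipids into lamellar bodies of lung cells, changed by 0.30 ± 0.08, Abcc1 by 0.27 ± 0.07 and Abcf1, an ABC protein of translation and not a transporter, by 0.21 ± 0.07. The refit passed 3 of those 4 with all libraries and 0 without siDUSP6 replicate 2, siDUSP6 replicate 3 or NC replicate 2, and of the 4 called lower it passed 2 when any of these was left out. Scaled over the listed genes, it passed 1 (TMM) and 0 (median of ratios) of those called higher.

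Per kb of exon, the called members covered a wide range of levels in NC. The glutathione and thioredoxin genes held the first 4 places (Gclc, Prdx5, Prdx3 and Prdx6, at 2728 ± 154, 2143 ± 280, 1549 ± 74.1 and 1323 ± 16.0 normalized counts per kb, SD, n = 3 each). The NC values of each of the first 3 did not overlap with the next in that order, while those of Prdx6, Gstm1, Txndc17 and Ephx1, in places 4 to 7, overlapped from neighbour to neighbour. Among the transferases Gstm1 was the highest, at 1232 ± 208.5. The lowest places were those of Gsta3, Akr1c14, Aldh5a1 and Abca6, at 18.5 ± 6.37, 16.7 ± 1.89, 13.7 ± 1.89 and 13.3 ± 1.55. Aldh1a1 stood at 607 ± 91.0 in NC and 268 ± 17.9 in siDUSP6, and Aldh1a7 at 119 ± 19.5 and 27.0 ± 9.01. Exon length is that of all annotated transcripts of a gene together, so a gene whose cells use a short transcript is placed too low.

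**Figure D2:**
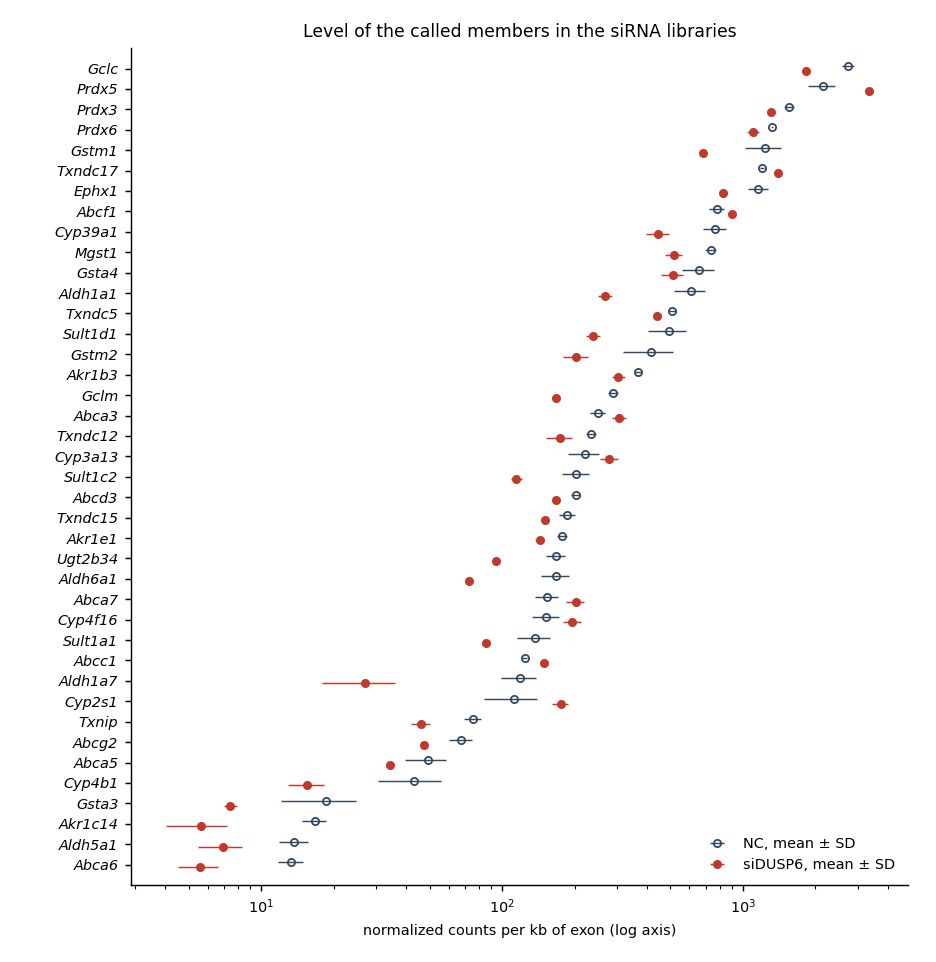
Level of the 40 called members as normalized counts per kb of annotated exon (log axis), ordered by the NC mean. Open points are NC and filled points siDUSP6, and bars are the SD over 3 libraries. Gclc has the highest and Abca6 the lowest NC mean, and Prdx5 has the highest mean in siDUSP6.

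Replicates of the NC group were more spread than those of siDUSP6. The coefficient of variation of the called members had a median of 11.2% in NC and 5.71% in siDUSP6. Over the genes listed in the siRNA table, chi-square over its degrees of freedom was 15.84, 25.67 and 7.05 between NC replicates. Between siDUSP6 replicates it was 7.10, 13.35 and 4.45, so spread between replicates was not particular to the members. Of the 31 members called lower, NC replicate 3 was the highest NC library in 19 and NC replicate 2 the lowest in 17. Of the 9 called higher, NC replicate 1 was the lowest in 8 and NC replicate 3 the highest in 6. This order of libraries was not counted over all listed genes, so it cannot be called a trait of the members.

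In the plasmid contrast 7 members were listed, and each was called higher in the libraries labelled GFP-DUSP6, by small amounts. The median log2 fold change was 0.27, against 0.35 over all 580 called genes, of which 73.6% were higher. Of the 12592 tested genes 4.61% were called, 3.39% higher and 1.22% lower. A change of at least 2-fold was seen in 0 members, where 0.357% of tested genes were called with such a change and 0.0794% with a fall of that size. P450, epoxide hydrolase, glutamate-cysteine ligase and glutathione S-transferase genes had 0 listed members. The directions depend on scaling: with TMM over the listed genes Abcc1, Aldh1a1, Gsr and Prdx6 turned negative, and with median of ratios Akr1b3 and Txn1 as well. Those scalings take genes listed for their p, and mostly higher, as unchanged, and they shifted all listed genes by a median of -0.30 and -0.32. Over all genes that passed, 75.6% were higher in an edgeR refit, 26.8% with TMM and 22.0% with median of ratios. The groups did not overlap in 7 of the 7 members nor in 578 of all 580 called genes. Of the members 7 passed in the refit, but 3 without GFP-DUSP6 replicate 1, 2 without GFP-DUSP6 replicate 2, 0 without GFP-DUSP6 replicate 3 and 1 without GFP replicate 3. A response to plasmid DNA that differs between the groups and an effect of DUSP6 cannot be told apart.

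Txn1, the cytosolic thioredoxin, had the smallest adjusted p of the 7. It had 3026, 3097 and 3199.8 normalized counts in the libraries labelled GFP-DUSP6 and 2415, 2423 and 2638 with GFP, a log2 fold change of 0.32 ± 0.06 (SE, edgeR; adjusted p = 7.07e-05 in the authors' deposited table). Gsr, which returns oxidized glutathione to its reduced form, had 3359.8, 3572 and 3250.1 against 2853, 3016 and 2938, a log2 fold change of 0.21 ± 0.05 (adjusted p = 0.0285 in the authors' deposited table). Both lay above the GFP libraries in every library labelled GFP-DUSP6. Prdx6 had 6894, 6731 and 6778 against 5675, 6253 and 5641, and a log2 fold change of 0.22 ± 0.05 (adjusted p = 0.0124 in the authors' deposited table). Akr1b3 had 2238, 2465 and 2453 against 1875, 2092 and 1846, and Aldh1a1 had 2716, 2429 and 2750.4 against 2347, 2192 and 2008. Their log2 fold changes were 0.30 ± 0.06 and 0.27 ± 0.07. The gap between the groups was narrow in both. Sult1c2 had 324, 319 and 289.9 against 251, 220.2 and 179 with GFP, a log2 fold change of 0.52 ± 0.14 (adjusted p = 0.0295 in the authors' deposited table), and GFP replicate 3 was the lowest. Abcc1, an exporter of glutathione conjugates, had 2426, 2458 and 2434 against 2036, 2059 and 2045, a log2 fold change of 0.25 ± 0.05 (adjusted p = 0.00306 in the authors' deposited table), and its libraries lay closest together within each group.

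**Figure D3:**
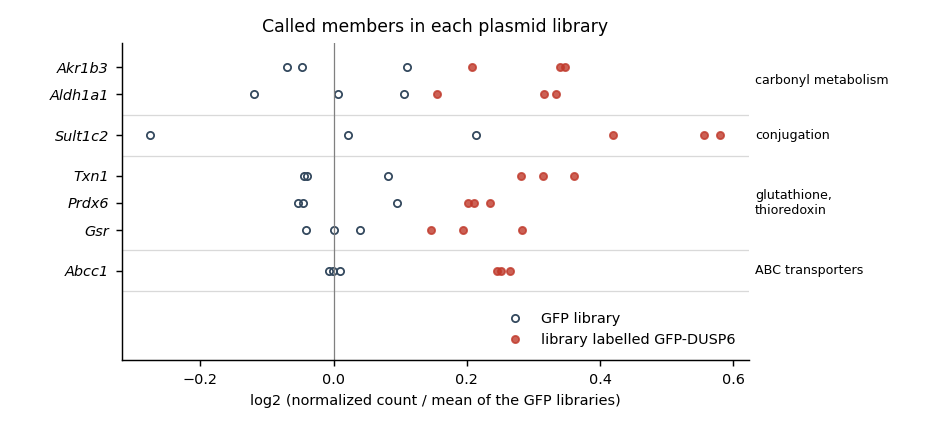
Normalized count of the 7 called members in each plasmid library, as log2 of the ratio to the mean of the 3 GFP libraries. Filled points are the 3 libraries labelled GFP-DUSP6 and open points the 3 GFP libraries. Groups do not overlap in any of the 7 (nor in 99.7% of all called genes), with size factors of the whole libraries; with TMM over the listed genes 4 of the 7 fold changes turn negative, and with median of ratios 6.

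Abcc1, Akr1b3, Aldh1a1, Prdx6 and Sult1c2 were called in both contrasts, which share no library. Akr1b3, Aldh1a1, Prdx6 and Sult1c2 were higher in the libraries labelled GFP-DUSP6 and lower with siDUSP6, and Abcc1 was higher in both; with scaling over the listed genes the plasmid direction of Abcc1, Aldh1a1 and Prdx6 flips, and with median of ratios that of Akr1b3 too. The effect in the plasmid contrast minus that in the siRNA contrast was 1.45 ± 0.14 for Aldh1a1, 1.35 ± 0.19 for Sult1c2, 0.57 ± 0.09 for Akr1b3 and 0.48 ± 0.08 for Prdx6 on the log2 scale (SE, edgeR over 12 libraries). The adjusted p, over the 257 genes listed in both tables, was 7.48e-07, 2.29e-05, 6.09e-05 and 5.07e-05. For Abcc1 the difference was -0.02 ± 0.07 (adjusted p = 0.82, edgeR). With TMM over the listed genes it was -0.40 (adjusted p = 0.000974, edgeR) and with median of ratios -0.54 (adjusted p = 9.16e-05, edgeR). In this fit both scalings ran over only the 257 genes listed in both tables. They take these selected genes as unchanged by construction, so no difference of Abcc1 can be concluded from them. The plasmid directions above rest on scalings over all genes listed in the plasmid contrast. The 257 genes were listed because each contrast passed on its own, so opposite signs nearly fix the test of the difference. With size factors of the whole libraries 85.6% of the 257 genes passed it. With TMM and median of ratios over the listed genes the differences of Aldh1a1 and Sult1c2 still passed, while Prdx6 (0.098 and -0.048) and Akr1b3 did not. The difference of Akr1b3 was then 0.19 (adjusted p = 0.0973, edgeR) and 0.048 (adjusted p = 0.7, edgeR). Dusp6 counts were lower in both contrasts. Time and the transfected nucleic acid both differ between the contrasts, and their parts cannot be told apart.

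**Figure D4:**
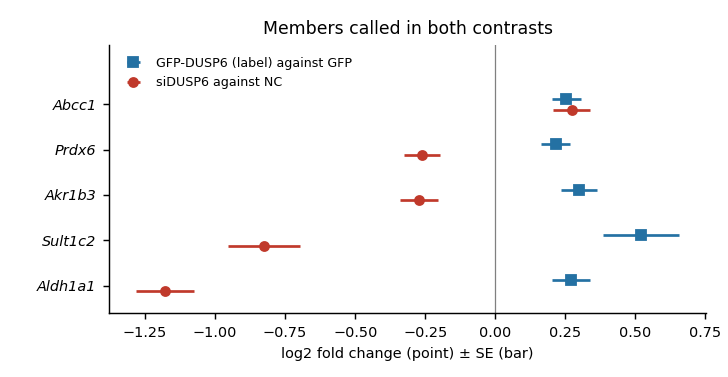
Log2 fold change of the 5 members called in both contrasts, with bars for the SE (edgeR, size factors of the whole libraries). Squares are the libraries labelled GFP-DUSP6 against GFP and circles siDUSP6 against NC. Abcc1 lies to the right of 0 in both, and the other members lie on opposite sides; scaled over the listed genes, the plasmid values of Abcc1, Aldh1a1 and Prdx6, and by median of ratios of Akr1b3, lie under 0.

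Genes of the same pathways outside these families were taken from lists. Their counts stand beside the 15.0% of all tested genes called with siDUSP6 (7.19% lower, 7.76% higher) and the 4.61% called in the plasmid contrast; how many list genes were tested is not known. Of 20 NRF2 pathway genes, 3 were called higher and 0 lower with siDUSP6, where 15.0% of tested genes were called and 7.76% called higher. They were Hmox1, heme oxygenase, and Mafk and Maff, small partners of NRF2, at 0.42 ± 0.09, 0.59 ± 0.08 and 0.32 ± 0.07 on the log2 scale (SE, edgeR). Without siDUSP6 replicate 3 the refit passed 1 of them, without siDUSP6 replicate 2 or NC replicate 2 it passed 2, and with median of ratios 2. In the plasmid contrast 2 were called, both higher, namely the cystine transporter Slc7a11 at 0.38 ± 0.09 and the ferritin gene Fth1 at 0.21 ± 0.06, which turned to -0.091 and -0.12 when scaled over the listed genes with TMM and median of ratios. The edgeR refit passed 1 of the 2, and 0 without any 1 of the GFP-DUSP6 replicates, without GFP replicate 3 or with either scaling. Of 20 other antioxidant genes 7 were called lower and 0 higher with siDUSP6, with a median log2 fold change of -0.72. Sesn3, a sestrin, had 727 ± 17.6 normalized counts against 1268 ± 63.9 in NC, and Selenop, the selenium carrier of plasma, 2346 ± 108 against 3839 ± 289.5 (SD, n = 3 each). Catalase (Cat) had a log2 fold change of -0.35 ± 0.07. In the plasmid contrast 2 of these were called, both higher, Selenop at 0.26 ± 0.07 and Glrx, a glutaredoxin, at 0.42 ± 0.12, and with those scalings Selenop turned to -0.033 and -0.061. The edgeR refit passed 1 of them, and 0 without any 1 of the GFP-DUSP6 replicates, without GFP replicate 2 or 3, or with either scaling. With siDUSP6 the refit passed 6 of the 7, and 4 without siDUSP6 replicate 2.

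Of 21 xenobiotic receptors and partners 5 were called lower and 2 higher with siDUSP6. Of all tested genes 15.0% were called there, 7.19% lower and 7.76% higher. Ppara, the receptor that governs fatty acid oxidation, had 84.9 ± 8.37 normalized counts against 165.9 ± 2.34 in NC, and Nr1h4, the bile acid receptor, 1083 ± 4.95 against 1666 ± 223 (SD, n = 3 each). Hnf4a and the glucocorticoid receptor Nr3c1 had log2 fold changes of -0.31 ± 0.09 each. Cyb5a, which passes electrons to P450s, had one of -0.51 ± 0.10, and Cyb5r3 and Ppard were called higher. The refit passed 5 lower and 1 higher, and 3 and 0 without siDUSP6 replicate 2 or siDUSP6 replicate 3. In the plasmid contrast 0 of the 21 were listed. Of 23 other detoxification enzymes 3 were called lower with siDUSP6 and 0 higher, beside 15.0% of tested genes called and 7.19% called lower. Maoa, monoamine oxidase, was lower there at 1296 ± 43.1 against 2103 ± 99.9 normalized counts, and higher in the libraries labelled GFP-DUSP6 at 2114 ± 43.1 against 1638 ± 110.4 with GFP (SD, n = 3 each). The plasmid call of Maoa was lost with either scaling over the listed genes. Adh7 and Aox1 had log2 fold changes of -0.62 ± 0.08 and -0.47 ± 0.12. Of 20 genes of cholesterol synthesis and uptake, the pathway that supplies oxysterols to Cyp39a1, 7 were called higher and 1 (Ebp) lower, with a median of 0.37. The refit passed 6 of the 7, but 0 without siDUSP6 replicate 2 or siDUSP6 replicate 3, 1 without NC replicate 2 and 3 with median of ratios. In the plasmid contrast 0 of the 20 were listed.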

How the data were processed

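Each contrast has 1 deposited table of counts per gene in each library. Per the file headers, log2 fold changes, p-values and adjusted p-values of the authors stand beside them, and for the siRNA contrast also a deposited mean normalized signal and a linear fold (ratio). Per the submitters' processing notes DESeq2 and mm10 were used; the sources used here name no aligner, counter, annotation or version. The tables list 707 and 2150 selected genes; ranks and p-values imply 12592 and 13102 tested genes. Size factors were recovered from the deposited mean normalized signal (siRNA) or, for the plasmid contrast, from deposited fold changes, taking the 489 genes whose every library had over 200 counts.

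A member is called where its deposited adjusted p is under 0.05. Log2 fold changes ± SE come from edgeR 4.0.16 in R 4.3.3 (quasi-likelihood, filterByExpr minimum count 10), with p-values adjusted by Benjamini-Hochberg over the implied tested genes; the fits were tested on simulated data. Differences between contrasts used all 12 libraries. The refits held only the listed genes, so their estimates of spread come from genes selected for a small p. The SE and p-values of the refits rest on that spread. The refits also use the same counts as the deposited calls and are not an independent check of them. DESeq2 1.42.0 was an alternative. Members chosen for full values were those called in both contrasts and up to 5 per role and contrast. The latter had the smallest deposited adjusted p and 50 or more mean normalized counts in the group with more. Outside this rule, Gsta3, Mgst1, Sult6b2 and Cyp2d67-ps are also given per library, while Cyp4f16 and, with siDUSP6, Abcc1 are not. Other members and list genes appear with single values, ranges or group means. Members and lists were chosen with earlier results of these data known. Words of 50 bases and exon lengths come from GENCODE M21 (GRCm38), and promoters from RefSeq (GRCm38.p6). Depth of the whole libraries is unknown. Replicates were not duplicates of each other (chi-square over its degrees of freedom, 3.89 to 25.7).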

Additional observations from a re-analysis of the deposited data

How the results depend on the processing

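With the deposited threshold set to 0.01, 3 plasmid members were higher, and 5 were higher and 25 lower with siDUSP6; 1 of the members called in both contrasts was opposite and 1 the same. With a minimum of 2-fold these counts were 0, 0 and 9, and 0 and 0. TMM and median of ratios over the listed genes passed 0 and 0 plasmid members, so 0 members were called in both contrasts, opposite or the same; with siDUSP6 they passed 3 and 2 higher. The edgeR refit passed 5 higher with siDUSP6, against 9. The cause was not tested; those scalings take the listed genes as unchanged by construction. The DESeq2 refit gave 7, 0, 9 and 31 as in the deposited table, and the fit without a filter 7, 0, 6 and 29. Without single libraries the refit passed 0 to 7 plasmid members higher and 0 lower, 1 to 6 higher and 18 to 29 lower with siDUSP6, 0 to 4 opposite and 0 to 1 the same; a refit with fewer libraries also has less power. The number of members whose effects differ between contrasts was 4 in each of these. Opposite signs nearly fix that test, and 215 to 222 of the 257 genes listed in both tables passed it without single libraries. With either scaling the number was 3, where Akr1b3 and Prdx6 were lost and Abcc1, at -0.40 and -0.54, passed. The scalings of that fit take only these 257 selected genes as unchanged. By TMM the plasmid log2 fold change turned to -0.045 for Abcc1, -0.028 for Aldh1a1, -0.088 for Gsr and -0.082 for Prdx6, and by median of ratios to -0.071, -0.054, -0.11 and -0.11, with -0.024 for Akr1b3 and -0.0066 for Txn1. The difference between contrasts turned to -0.048 for Prdx6 by median of ratios and lay between -0.049 and 0.0055 for Abcc1 without single libraries (0.0055 without siDUSP6 replicate 2). Whether replicate numbers pair the libraries is not settled. For this check each gene's group mean was subtracted from its log2 normalized counts, over listed genes. Only these deviations within a group were correlated, not the levels of the libraries. Between same-numbered libraries the deviations correlated at 0.167, 0.247 and 0.032 (plasmid) and 0.232, -0.02 and 0.11 (siRNA). Between differently numbered libraries they correlated between -0.224 and 0.053 (plasmid) and between -0.243 and 0.165 (siRNA). Over all genes a fit with the replicate number as a block passed 584 (plasmid) and 1967 (siRNA), against 529 and 1605 without it. With the replicate block the refit passed 7 plasmid members higher and 0 lower, and 9 higher and 31 lower with siDUSP6, 4 opposite and 1 the same, and 4 differences. For genes with under 100 normalized counts, such as Akr1c14, Abca6 and Gsta3, the few counts limit the precision.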

Other observations

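Listed members without an adjusted p in the authors' deposited table were Sult6b2, with 8.86, 14.4 and 17.0 normalized counts in siDUSP6 and 5.01, 3.15 and 3.91 in NC, and Cyp2d67-ps, a pseudogene with 5, 3 and 2 counts in siDUSP6 and 0, 0 and 0 in NC. Of the 50-base words of Cyp2d67-ps 10.1% occur in other genes, first in Cyp2d9. Both were too low for the filter of the edgeR refit with all libraries. The fit without a filter and the fit without siDUSP6 replicate 1 each passed 6 members higher. Those counts include a member without a deposited adjusted p.

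Some members lay near each other on a chromosome. Besides the Aldh1a, Gstm and Abca5 and Abca6 neighbours, Gclc and Gsta4 lie 388.3 kb apart on chromosome 9, Ugt2b34 and Sult1d1 647.7 kb apart on chromosome 5, Abcd3 and Gclm 430.3 kb apart on chromosome 3, and Akr1c14 and Akr1e1 500.1 kb apart on chromosome 13. Within each of these pairs both genes were called lower with siDUSP6, as were 77.5% of all called members. Whether neighbours move together more often than other called genes was not tested.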
